A study of Oryza sativa Indica Group with 6 samples.

Results

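The genotype difference examined here is the part of the contrast between 2 rice genotypes that kept its direction before and during submergence, whatever its size at each time. It was measured as the mean of the 3 time means of the log2 ratio of FR13A over IR24, and it was followed for the probes whose ratio had the same direction on all 6 arrays of the study. Of 21495 gene probes on the array, 20315 were kept after a filter on dim probes, 5240 had the same direction on all 6 arrays, and 3493 of these also passed limma's test of the mean difference at an adjusted p under 0.05. These 3493 probes are called held differences below, with 1738 higher and 1755 lower in FR13A. The direction rule and the test both use the same arrays, so the mean differences of the held probes are given as descriptions of a chosen set. Tests of change with time were run on all probes, but they share arrays and residual variance with the choice of the set, so shares of held probes among their calls are descriptions too.

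The study co-hybridised leaf RNA of both genotypes on 2-colour Agilent oligonucleotide arrays. FR13A is known as a rice that tolerates submergence, and IR24 is an indica rice that served as the comparison on every array. Each time had 2 arrays with the dyes exchanged: FR13A and IR24 seedlings taken 14 days after sowing with no treatment (constitutive), seedlings held under water in transparent bags over 15 min and likewise taken on day 14, and seedlings kept so for 24 h and sampled on day 15. Plants were grown in growth chambers, and neither genotype carried a transgene or another treatment per the labels. No array held plants of day 15 that had stayed in air. The labels name replications but not whether these were separate plantings, so p-values measure the spread between these arrays.

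Submergence limits the supply of oxygen and light to a leaf, and the gaseous hormone ethylene builds up in tissue under water. Rice responds through ethylene signalling, through fermentation, which regenerates NAD+ when respiration is slow, and through changed use of sugars and cell wall. A difference between genotypes that is already there in air and stays through 24 h under water is of another kind, since its direction does not need submergence to appear.

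The shares of gene probes well above background were 81.8% to 92.7% in the FR13A channels and 87.3% to 95.3% in the IR24 channels. The number of arrays limits the precision. Of 69 kept probes for leaf photosynthesis, 66 were well above background in all 12 channels, as were 10 of 21 root or pollen probes and 12 of 15 seed storage probes. The arrays correlated with each other across probes at r = 0.567 to 0.840 over 15 pairs, a description over probes that are not independent replicates. The 6 arrays were scanned on 3 days that held 1, 2 and 3 arrays. A probe of the same direction on all arrays has that direction within each scan day by construction. Gene names come from the array's own descriptions, and "like" marks a probe described by a similar sequence of another species. Transcript abundance and a sequence difference between genotypes at the probe cannot be told apart in these ratios, and neither can fewer cells of a type and less RNA per cell.

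Most held differences were small, and a minority were very large. The mean difference passed limma's test for 4096 of 20288 probes (20.2%), with 2056 higher (10.1%) and 2040 lower (10.1%) in FR13A. The same direction on all 6 arrays was found for 25.8% of kept probes, 12.6% higher and 13.2% lower. Held differences made up 17.2% of kept probes, 8.56% higher and 8.64% lower, in near equal numbers. Their median absolute log2 difference was 0.476 (lower quartile 0.334, upper quartile 0.735), against 0.0882 for the other kept probes with a fit. The median SE of a held difference was 0.0677. A mean difference of at least 1 on the log2 scale was reached by 223 higher and 261 lower probes, of at least 2 by 54 higher and 71 lower, and of at least 3 by 14 higher and 24 lower. On every single array, 109 higher and 143 lower probes exceeded 1, and 28 higher and 40 lower probes exceeded 2.

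The direction rule and the test did not choose the same probes. Of the 5240 probes of the same direction, 1747 did not pass the test. Of the 4096 that passed, 603 were outside the rule: 191 lacked a value on an array, 344 went the other way on exactly 1 array and 68 on more arrays. The single opposing array was 24 h replicate 1 for 102 probes and constitutive replicate 1 for 82, and each other array for 27 to 61. The held probe nearest the border was AK058573, like an oat arginine decarboxylase, with a smallest ratio of 0.00050 on 24 h replicate 1 and a mean of 0.74. Just outside stood AK063692, with 0.00014 on constitutive replicate 1 and a mean of -0.25. A size rule moves the border much further, since 1783 probes of the same direction reached at least 0.2 on every array.

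**Figure D1:**
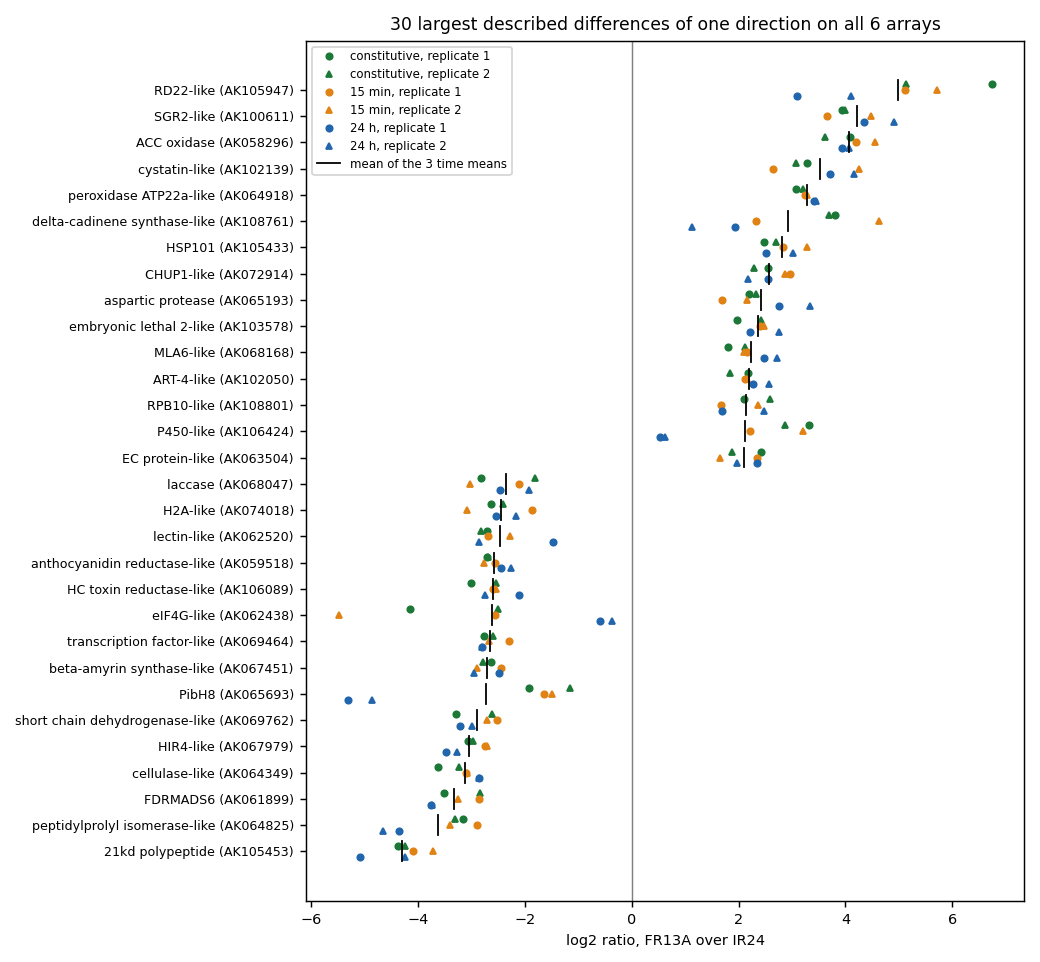
Log2 ratio of FR13A over IR24 (horizontal axis) on each array for the 15 described probes with the largest held difference in each direction, 1 row per probe. Colours mark the time, circles replicate 1 and triangles replicate 2, and the black bar is the mean of the 3 time means. The 15 upper rows lie right of 0 and the 15 lower rows left of 0 on every array, and the 24 h points of RD22-like, cadinene synthase-like, P450-like, eIF4G-like and PibH8 stand apart from their other points.

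Among the higher probes, the largest described difference belonged to AK105947, like RD22, a dehydration-responsive protein known from Arabidopsis. Its log2 ratios were 6.74 and 5.13 in constitutive leaf, 5.12 and 5.71 at 15 min and 3.09 and 4.10 at 24 h. All 6 were far above 0, with the 24 h arrays lowest, and the mean was 4.98 ± 0.25 (SE, limma adjusted p = 0.000189), a 31.6-fold difference. AK100611, like SGR2, which Arabidopsis shoots need to sense gravity, had ratios of 3.94 and 3.99 in constitutive leaf, 3.65 and 4.48 at 15 min and 4.35 and 4.91 at 24 h. Its mean was 4.22 ± 0.13 (SE, limma adjusted p = 5.1e-05) with every array above 3.

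AK058296, described as rice ACC oxidase (ACC is 1-aminocyclopropane-1-carboxylate), which makes ethylene from its precursor, was the third among described probes. Its ratios were 4.09 and 3.61 in constitutive leaf, 4.19 and 4.55 at 15 min and 3.93 and 4.07 at 24 h. The 6 arrays lay within 1 log2 unit of each other, and the mean was 4.08 ± 0.09 (SE, limma adjusted p = 2.5e-05), a 16.9-fold difference. AK064918, like an Arabidopsis peroxidase (ATP22a), of a family of secreted heme enzymes that oxidise phenolics with hydrogen peroxide, had ratios of 3.07 and 3.21 in constitutive leaf, 3.23 and 3.28 at 15 min and 3.41 and 3.45 at 24 h. Its 6 values were close together, with a mean of 3.28 ± 0.05 (SE, limma adjusted p = 1.5e-05).

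AK105433, described as rice HSP101, a chaperone that pulls apart aggregated proteins and is needed for heat tolerance, had ratios of 2.48 and 2.70 in constitutive leaf, 2.84 and 3.28 at 15 min and 2.51 and 3.02 at 24 h. None of the arrays came near 0, and the mean was 2.81 ± 0.10 (SE, limma adjusted p = 6.4e-05). AK102139, like a carrot extracellular cystatin, an inhibitor of cysteine proteases, averaged 3.52 ± 0.21 (SE, limma adjusted p = 0.00036) over arrays from 2.64 to 4.25. AK072914, like Arabidopsis CHUP1, an actin-binding protein that positions chloroplasts, averaged 2.57 ± 0.07 (SE, limma adjusted p = 4.4e-05) with a range of 2.17 to 2.96. The remaining higher probes of this group held smaller but equally one-sided ratios. AK065193, described as rice aspartic protease, ranged from 1.69 to 3.34. AK103578, like a human sequence named for embryonic lethality, ranged from 1.97 to 2.75. AK102050, like human ART-4, ranged from 1.84 to 2.58, and AK108801, like RPB10, a small subunit of RNA polymerases, ranged from 1.68 to 2.59. AK063504, like the wheat EC protein, a zinc-binding metallothionein, ranged from 1.65 to 2.41.

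Among the lower probes, AK105453, described as a rice 21kd polypeptide, led. Its ratios were -4.38 and -4.25 in constitutive leaf, -4.09 and -3.73 at 15 min and -5.08 and -4.25 at 24 h. Every array was below -3, and the mean was -4.30 ± 0.12 (SE, limma adjusted p = 4.4e-05). AK064825, like a wheat peptidylprolyl isomerase, an enzyme that helps proteins fold, had ratios of -3.17 and -3.31 in constitutive leaf, -2.90 and -3.39 at 15 min and -4.36 and -4.66 at 24 h. The 24 h arrays were the lowest of this probe, and the mean was -3.63 ± 0.09 (SE, limma adjusted p = 2.7e-05). AK061899, described as rice FDRMADS6, a MADS-box transcription factor, had ratios of -3.51 and -2.84 in constitutive leaf, -2.85 and -3.25 at 15 min and -3.75 and -3.73 at 24 h. Its mean was -3.32 ± 0.11 (SE, limma adjusted p = 5.5e-05), a 10-fold lower level in FR13A.

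AK067979, like barley hypersensitive-induced reaction protein 4, of a family of membrane proteins tied to cell death in defence, had ratios of -3.07 and -2.98 in constitutive leaf, -2.75 and -2.71 at 15 min and -3.47 and -3.28 at 24 h. The 6 values were close together, and the mean was -3.04 ± 0.05 (SE, limma adjusted p = 1.5e-05). AK064349, like a fungal cellulase, averaged -3.13 ± 0.07 (SE, limma adjusted p = 2.5e-05) over arrays from -3.63 to -2.86. AK069762, like an Arabidopsis short-chain alcohol dehydrogenase, of a family apart from the dehydrogenases of ethanol fermentation, averaged -2.89 ± 0.10 (SE, limma adjusted p = 6.4e-05) with a range of -3.29 to -2.53.

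The remaining large lower differences began with AK067451, like oat beta-amyrin synthase, which makes the triterpene skeleton of antifungal saponins in oat. Its ratios were -2.63 and -2.79 in constitutive leaf, -2.45 and -2.89 at 15 min and -2.48 and -2.96 at 24 h. Its 3 time means differed by only 0.05, the narrowest range among described held probes of at least 1 log2 unit, and the mean was -2.70 ± 0.09 (SE, limma adjusted p = 6.4e-05). AK106089, like the maize hm1 reductase that inactivates a fungal toxin, averaged -2.59 ± 0.11 (SE, limma adjusted p = 0.000117) over arrays from -3.00 to -2.11. AK059518, like Medicago anthocyanidin reductase, an enzyme of condensed tannin synthesis, averaged -2.57 ± 0.06 (SE, limma adjusted p = 2.5e-05) with a range of -2.77 to -2.26. AK068047, described as a rice laccase, of the oxidases that polymerise lignin units, ranged from -3.03 to -1.80. The other lower probes of the group were AK069464, like a bean putative transcription factor (-2.80 to -2.29), AK062520, a rice lectin-like protein (-2.85 to -1.47), and AK074018, like wheat histone H2A (-3.08 to -1.86).

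Differences as large stood on probes with no informative description. AK105777 averaged -4.99 ± 0.08 (SE, limma adjusted p = 1.5e-05) over arrays from -5.30 to -4.74, and AK066323 averaged -4.71 ± 0.14 (SE, limma adjusted p = 4.8e-05) over -5.39 to -4.30. On the higher side AK072886 averaged 4.15 ± 0.10 (SE, limma adjusted p = 2.7e-05) over 3.83 to 4.55, and AK068287 averaged 4.01 ± 0.19 (SE, limma adjusted p = 0.000169) over 3.42 to 4.82. Of the 68 probes beyond 2 log2 units on every array, 18 had an informative description. Probes described as unknown made up 26.8% of the held differences and 25% of kept probes.

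The normalisation adds an offset of 50 intensity units, which pulls the ratios of dim probes towards 0, so a large difference on a dim probe can be understated. With no offset the median absolute difference of the held probes was 0.647, and with the scanner software's processed signals it was 0.673. The direction of the mean difference was the same under both for all 3493. AK068168, like barley MLA6, a disease resistance protein with a nucleotide-binding site and leucine-rich repeats (NBS-LRR), shows this. Its log2 ratios were 1.81 and 2.11 in constitutive leaf, 2.16 and 2.10 at 15 min and 2.47 and 2.73 at 24 h, with a mean of 2.23 ± 0.07 (SE, limma adjusted p = 4.7e-05), and the mean was 4.27 with no offset. All 6 FR13A channels and 1 of 6 IR24 channels were well above background, so both means rest on an IR24 level that was mostly not measured. In constitutive leaf its level in FR13A was at least 3.86-fold higher, and at 15 min at least 4.38-fold higher.

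**Figure D2:**
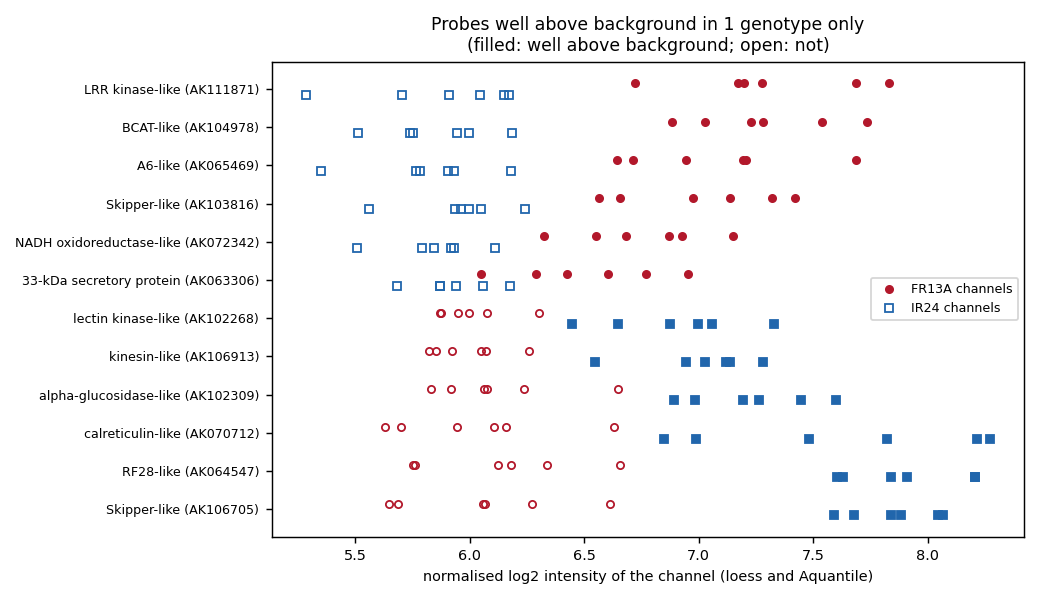
Normalised log2 intensity (horizontal axis) of the 6 FR13A channels (red circles) and 6 IR24 channels (blue squares) for 12 described probes that were well above background in every channel of 1 genotype and in none of the other. Filled symbols are well above background, and for these probes the open symbols give only an upper bound on a level.

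The extreme form of a held difference is a probe measured in 1 genotype only. Well above background in all 6 FR13A channels and in no IR24 channel were 14 probes, and the reverse held for 34. All of these were held differences, a result that choice by detection favours. For these the fold is a lower bound, computed from channel levels after loess and Aquantile normalisation. On each array the dim genotype counted at its own level or at the lowest signal well above background, whichever was higher. AK111871, like an Arabidopsis leucine-rich repeat receptor kinase, was at least 2.61-fold higher in FR13A. AK104978, like a branched-chain amino acid aminotransferase, was at least 2.54-fold higher in FR13A, and AK065469, like the anther-specific protein A6, at least 2.23-fold higher. AK103816, like the retrotransposon Skipper, was at least 2.06-fold higher, AK072342, like a subunit of mitochondrial complex I, at least 1.78-fold higher, and AK063306, a rice 33-kDa secretory protein, at least 1.46-fold higher.

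Among the 34 probes measured in IR24 only, 10 had an informative description. The bounds were largest for AK106705, like Skipper, and AK064547, like the retrotransposon homologue RF28, both at least 3.38-fold lower in FR13A. AK070712, like barley calreticulin, a calcium-binding chaperone, was at least 2.86-fold lower in FR13A. AK102309, like potato alpha-glucosidase, was at least 2.13-fold lower, AK106913, like a maize kinesin, a motor protein, at least 1.94-fold lower, and AK102268, like a poplar lectin kinase, at least 1.77-fold lower. The plot of channel levels shows the 2 genotypes of these probes apart, except for AK063306, with the dim genotype near the bottom of the scale. The levels of AK063306 overlapped between arrays: FR13A stood at 6.29 and 6.05 at 24 h, and IR24 at 6.18 on constitutive replicate 1.

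Whether a held direction appears in arrays that did not choose it was described by leaving out each time in turn. With constitutive leaf left out, 2175 probes were chosen from the other 4 arrays, and of the 2160 with both values 2014 (93.2%) had the same direction on both left-out arrays and 14 (0.648%) the opposite. With 15 min left out the counts were 2384 of 2556 (93.3%) and 11 (0.430%), and with 24 h left out 1887 of 2114 (89.3%) and 51 (2.41%). Among all probes with both values, 28.2% to 30.7% were higher and 29.3% to 33.7% lower on both arrays of a time. The left-out size was close to the chosen size: the median was 0.571 in left-out constitutive leaf, against 0.633 in the arrays that chose the probes. It was 0.552 at left-out 15 min, against 0.614, and 0.612 at left-out 24 h, against 0.649.

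The difference at a single time passed limma's test for 6.15% of all probes in constitutive leaf, 5.34% at 15 min and 7.62% at 24 h, against 20.2% for the mean of the 3. Change of the genotype ratio with time was tested by contrasts between the time means. The F test over the 3 times passed for 11 of 20288 probes (0.0542%), and 4 of these were held differences. At an unadjusted p under 0.05 it passed for 479 held probes (13.7%) and for 1114 of all probes (5.49%). Between constitutive leaf and 15 min no probe changed its ratio (limma, 0 of 20311 probes, 0%; smallest adjusted p = 0.598), with 427 probes at an unadjusted p under 0.05. Between constitutive leaf and 24 h 22 probes changed (0.108%), 8 of them held, with 1413 probes at an unadjusted p under 0.05. Between 15 min and 24 h 17 changed (0.0838%), 7 of them held, with 1158 at an unadjusted p under 0.05. The F test's count was 0 without constitutive replicate 1, constitutive replicate 2, 24 h replicate 1 or 24 h replicate 2, and 7 without either 15 min array. With 2 arrays per time, a miss does not show that a ratio stayed the same.

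**Figure D3:**
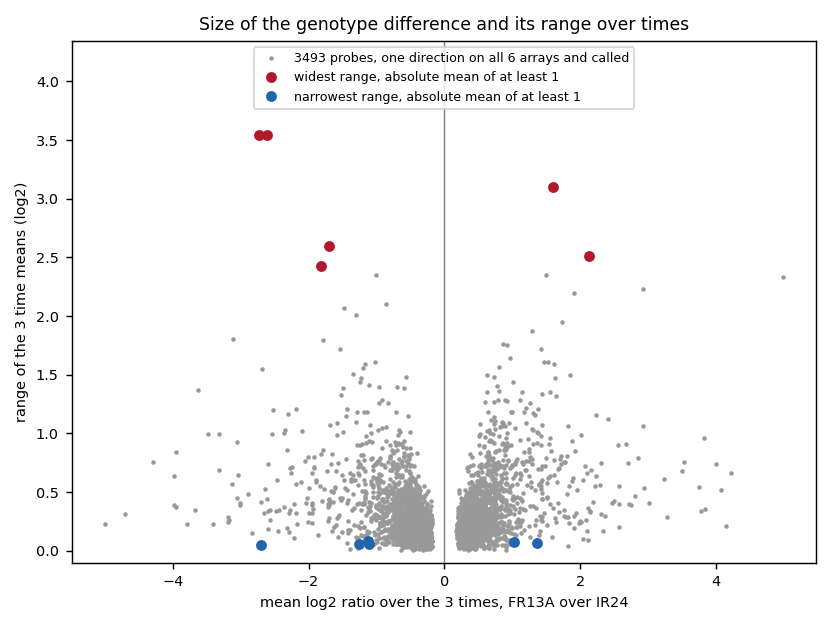
Range of the 3 time means of the log2 ratio (vertical axis) against the mean log2 ratio of FR13A over IR24 (horizontal axis) for the 3493 held probes, 1 point each. Red points are the 6 described probes of at least 1 log2 unit with the widest range and blue points the 6 with the narrowest. Most points lie under a range of 1, and the widest range, of 3.55, belongs to a probe with a mean of -2.73.

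Size over time was described for the 484 held probes of at least 1 log2 unit. The range of their 3 time means had a median of 0.536, the lower tail at 0.195 (10% quantile) and the upper at 1.18 (90% quantile). It was under 0.5 for 226 probes and over 1 for 76. Besides beta-amyrin synthase-like AK067451, the narrowest ranges belonged to AK105274, like an Arabidopsis nuclear coiled-coil protein, with array ratios from 0.97 to 1.14, to AK099576, like a barley lectin (0.95 to 1.86), to AK107160, like a receptor kinase (-1.58 to -0.72), to AK068836, like a protein phosphatase 2C (-1.56 to -0.64), and to the rbcL probe AK058623, whose spots were saturated in 1 FR13A and 5 IR24 channels, so that its range over times is not a measured stability. A narrow range of time means did not mean a narrow range of arrays. In AK107160 every replicate 2 array lay closer to 0 than its replicate 1 partner, whereas the arrays of AK105274 lay close together.

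**Figure D4:**
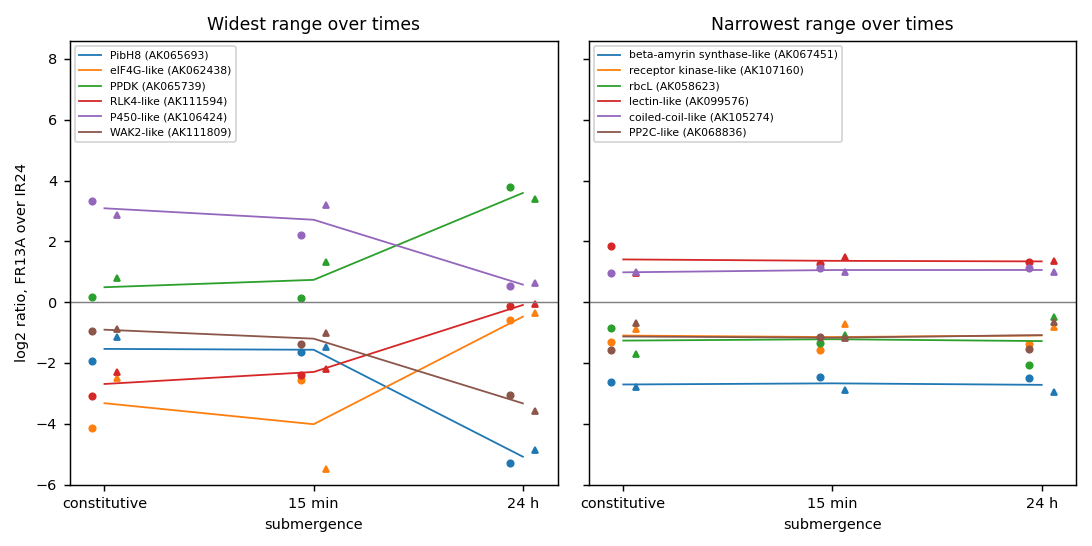
Log2 ratio of FR13A over IR24 (vertical axis) in constitutive leaf, at 15 min and at 24 h of submergence for the 6 held probes with the widest (left) and the 6 with the narrowest (right) range over times. Lines join time means, circles are replicate 1 and triangles replicate 2. On the left the step lies between 15 min and 24 h for each probe, and on the right the lines are flat, with saturated spots for the rbcL probe.

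In the widest-ranging members the sign was the same on all arrays while the size moved, and in each the step came between 15 min and 24 h. The same sign on both arrays of a time is not a passed test at that time, and some of these members did not pass at each time. AK065693, described as rice PibH8, a homologue of the blast resistance gene Pib, had ratios of -1.93 and -1.15 in constitutive leaf, -1.64 and -1.49 at 15 min and -5.31 and -4.86 at 24 h. Both 24 h arrays were far below the others. The ratio at 24 h minus that in constitutive leaf was -3.55 ± 0.29 (SE, limma adjusted p = 0.0374), and the F test gave a limma adjusted p of 0.0567. In FR13A only the 24 h channels were well above background, so the earlier ratios are bounds: FR13A was at least 2.87-fold lower in constitutive leaf and at least 2.81-fold lower at 15 min. Between arrays the level at 24 h differed by 0.56 in FR13A (SE 0.27, limma adjusted p = 0.252) and rose by 4.10 in IR24 (SE 0.27, limma adjusted p = 3.4e-05). Within the scan days that allow it, the difference between 24 h and 15 min was -3.66 and -3.37 on the log2 scale.

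AK111809, like an Arabidopsis wall-associated kinase (WAK2), a receptor that links wall and cytoplasm, had ratios of -0.94 and -0.88 in constitutive leaf, -1.38 and -1.02 at 15 min and -3.07 and -3.59 at 24 h. The ratio changed between constitutive leaf and 24 h by -2.42 ± 0.22 (SE, limma adjusted p = 0.0468). Between arrays the level differed in FR13A by 0.38 (SE 0.23, limma adjusted p = 0.383) and rose in IR24 by 2.80 (SE 0.23, limma adjusted p = 0.000119). AK068929, like the Arabidopsis F-box protein FBL14, of the proteins that choose targets for degradation, had ratios of -2.01 and -1.80 in constitutive leaf, -0.84 and -0.80 at 15 min and -2.74 and -2.48 at 24 h. Its ratio came closest to 0 at 15 min and changed between 15 min and 24 h by -1.79 ± 0.15 (SE, limma adjusted p = 0.0454).

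All 9 held probes with a change in a time test were lower in FR13A, with their most negative ratios at 24 h. Besides the 3 above these were AK068675, with no FR13A channel well above background and a bound of at least 2.58-fold lower in FR13A over the mean of the arrays, AK060656 (-2.40 to -0.09 over the arrays), AK110646 (-2.59 to -0.81), AK071492 (-3.75 to -2.11), AK067278 (-1.94 to -0.47) and AK067087 (-2.54 to -0.15), the last described by a patent on resistance to blast fungus. In the separate-channel fit IR24 rose at 24 h for all 9, with limma adjusted p from 3.3e-05 to 0.0326, and FR13A passed the test for none, with limma adjusted p from 0.067 to 0.961. For 3 of the 9 the FR13A level was mostly not measured: 0 of 6 FR13A channels were well above background for AK068675, and 2 of 6 for AK060656 and AK065693, and 4 of 6 IR24 channels were for AK060656. The FR13A values of these 3 say nothing of a level that stayed the same, and the 9 were chosen by the change of their ratio. In AK060656 and AK067087 the ratios in constitutive leaf and at 15 min were small, and neither passed limma's test at those times alone (adjusted p from 0.175 to 0.567).

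The other wide-ranging members did not pass the time tests. AK065739, described as rice cytosolic pyruvate orthophosphate dikinase, which turns pyruvate into phosphoenolpyruvate, had ratios of 0.18 and 0.80 in constitutive leaf, 0.15 and 1.32 at 15 min and 3.78 and 3.41 at 24 h. Its ratio was largest at 24 h, and the change from constitutive leaf was 3.10 ± 0.42 (SE, limma adjusted p = 0.117). Its ratio passed limma's test neither in constitutive leaf alone (adjusted p = 0.464) nor at 15 min alone (adjusted p = 0.274). Within both genotypes its level rose at 24 h, by 6.77 in FR13A (SE 0.38, limma adjusted p = 1.5e-05) and by 3.67 in IR24 (SE 0.38, limma adjusted p = 0.000426).

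AK106424, like an Arabidopsis cytochrome P450, went the other way, with ratios of 3.31 and 2.86 in constitutive leaf, 2.21 and 3.21 at 15 min and 0.54 and 0.62 at 24 h. At 24 h no IR24 channel was well above background, and FR13A was at least 1.49-fold higher. Its ratio at 24 h did not pass limma's test at that time alone (adjusted p = 0.258). AK111594, like the Arabidopsis receptor kinase RLK4, had ratios of -3.09 and -2.30 in constitutive leaf, -2.39 and -2.20 at 15 min and -0.14 and -0.05 at 24 h. No FR13A channel was well above background, so the ratios are bounds: FR13A was at least 6.15-fold lower in constitutive leaf and at least 4.86-fold lower at 15 min. At 24 h 1 of 2 IR24 channels was well above background, and the bound was 1.06-fold. AK062438, described by the human initiation factor eIF4G, had ratios of -4.15 and -2.49 in constitutive leaf, -2.56 and -5.48 at 15 min and -0.58 and -0.37 at 24 h, with 2 saturated IR24 channels and the widest spread between replicates of these 6 probes.

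Among the list members that bear on submergence, genes of ethylene synthesis were mixed. Of 11 kept probes, 3 were held higher and 2 held lower (45.5%, against 17.2% of all kept probes), and the list's median log2 difference was 0.23, against 0.00 over all kept probes. The list turns on ACC oxidase. Besides AK058296, AK102472, like an Arabidopsis ACC oxidase, had ratios of 0.62 and 0.14 in constitutive leaf, 0.21 and 0.57 at 15 min and 1.30 and 1.44 at 24 h, with a mean of 0.71 ± 0.09 (SE, limma adjusted p = 0.00427). On the lower side AK065039, described as rice ACO1, had ratios of -0.80 and -1.01 in constitutive leaf, -1.21 and -1.41 at 15 min and -1.15 and -1.47 at 24 h. Every array was below -0.7, and the mean was -1.18 ± 0.07 (SE, limma adjusted p = 0.000349).

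AK065212, like a wheat ACC synthase, the enzyme before ACC oxidase, averaged -0.44 ± 0.08 (SE, limma adjusted p = 0.0133) over arrays from -0.73 to -0.24. Another 6 probes did not pass the test. Among them, AK059964 carried the same ACC oxidase sequence name as AK058296 and averaged 0.24 ± 0.07 (SE, limma adjusted p = 0.057). Probes of 1 gene name therefore did not give 1 value here, and counts in this list are of probes, not of genes.

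For ethylene signalling, ERF and AP2 factors 5 of 50 probes were held higher and 5 lower (20%), with a median of -0.01. The shares in brackets for this and all later lists are to be read against 17.2% of all kept probes held, 8.56% higher and 8.64% lower. AK106057, like the potato AP2/ERF-domain protein cip353, averaged -1.63 ± 0.10 (SE, limma adjusted p = 0.000353) over arrays from -1.98 to -1.12. AK101501, like Arabidopsis RAP2.6, averaged 0.78 ± 0.11 (SE, limma adjusted p = 0.00633) over arrays from 0.47 to 1.26. AK105770, like Arabidopsis EIN2, the membrane protein that passes on the ethylene signal, averaged -0.61 ± 0.07 (SE, limma adjusted p = 0.00303) over arrays from -0.93 to -0.35.

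Enzymes of fermentation counted 8 held higher and 4 held lower of 56 probes (21.4%, against 17.2% of all kept probes). The list's median was 0.00. The 4 lower include the short-chain alcohol dehydrogenase-like AK069762, which the list's patterns matched by name and which is not an enzyme of ethanol fermentation. AK100678, described as rice pyruvate decarboxylase 1, which opens ethanol fermentation, had ratios of 1.07 and 1.93 in constitutive leaf, 0.67 and 1.63 at 15 min and 0.56 and 0.35 at 24 h. The mean was 1.03 ± 0.17 (SE, limma adjusted p = 0.0107), but only 2 of 6 IR24 channels were well above background and the call was lost with median centring in place of loess. AK101594, described as pyruvate decarboxylase 2, had ratios from 0.42 to 1.37, highest at 24 h, with a mean of 0.90 ± 0.06 (SE, limma adjusted p = 0.000574).

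Alcohol dehydrogenase, which completes ethanol fermentation, showed no held difference. AK069330, a probe of rice ADH1, was above 0 on all arrays, from 0.06 to 0.47, with a mean of 0.25 ± 0.07 (SE, limma adjusted p = 0.0515). A second ADH1 probe, AK073964, ranged from -0.54 to 0.35 with a mean of -0.02 ± 0.11 (SE, limma adjusted p = 0.94). The ADH2 probe AK102799 ranged from -0.11 to 0.59 with a mean of 0.19 ± 0.07 (SE, limma adjusted p = 0.148). AK067732, like alanine aminotransferase, which stores nitrogen and carbon as alanine when oxygen is short, was lower in FR13A on all arrays, from -1.55 to -1.02, with a mean of -1.31 ± 0.09 (SE, limma adjusted p = 0.00067).

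Glycolysis and sucrose breakdown had 9 probes held higher and 5 held lower of 64 (21.9%, against 17.2% of all kept probes). The list's median was 0.08. AK099086, described as rice cytosolic glyceraldehyde-3-phosphate dehydrogenase, had ratios of 1.21 and 1.38 in constitutive leaf, 0.93 and 1.51 at 15 min and 2.23 and 2.02 at 24 h and a mean of 1.54 ± 0.09 (SE, limma adjusted p = 0.000331). AK073770, described as rice aldolase C-1, had ratios of 0.50 and 0.30 in constitutive leaf, 0.43 and 0.27 at 15 min and 1.86 and 1.42 at 24 h, largest at 24 h, and a mean of 0.80 ± 0.08 (SE, limma adjusted p = 0.00172). AK059853, described as rice hexokinase II, averaged 0.64 ± 0.07 (SE, limma adjusted p = 0.0024). These 3 enzymes act at different stages of the path from glucose to pyruvate. They were named as the list's largest described held differences, and 5 other probes of the list were held lower. A difference of the path as a whole was not tested.

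Mitochondrial respiration and the TCA cycle had 3 held higher and 3 held lower of 52 (11.5%), with a median of 0.01. AK072950, described as rice citrate synthase, averaged -0.69 ± 0.06 (SE, limma adjusted p = 0.00103) over arrays from -1.11 to -0.23, and AK101730, like a tobacco malate dehydrogenase, averaged 0.66 ± 0.06 (SE, limma adjusted p = 0.0013) over 0.52 to 0.78. AK072104, like tobacco atpC, which codes for the gamma subunit of the ATP synthase of chloroplasts and not of mitochondria, averaged 0.71 ± 0.13 (SE, limma adjusted p = 0.0161). It lost the call without either constitutive array or 24 h replicate 2. Alternative oxidase lets electrons bypass part of the respiratory chain. Its AOX1b probe AK107376 had ratios of 0.93 and 1.03 in constitutive leaf, 0.33 and 0.64 at 15 min and -0.05 and 0.17 at 24 h and a mean of 0.51 ± 0.07 (SE, limma adjusted p = 0.00499), and the AOX1a probe AK064040 ratios of 0.65 and 0.80 in constitutive leaf, 0.22 and 0.66 at 15 min and -0.25 and 0.02 at 24 h and a mean of 0.35 ± 0.08 (SE, limma adjusted p = 0.0311). Both went below 0 on 24 h replicate 1, so neither is a held difference, and the AOX1a call was lost without any 1 array except 15 min replicate 1. The hemoglobin 1 probe AK064054 ranged from -0.06 to 0.89 with a mean of 0.31 ± 0.09 (SE, limma adjusted p = 0.0612).

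**Figure D5:**
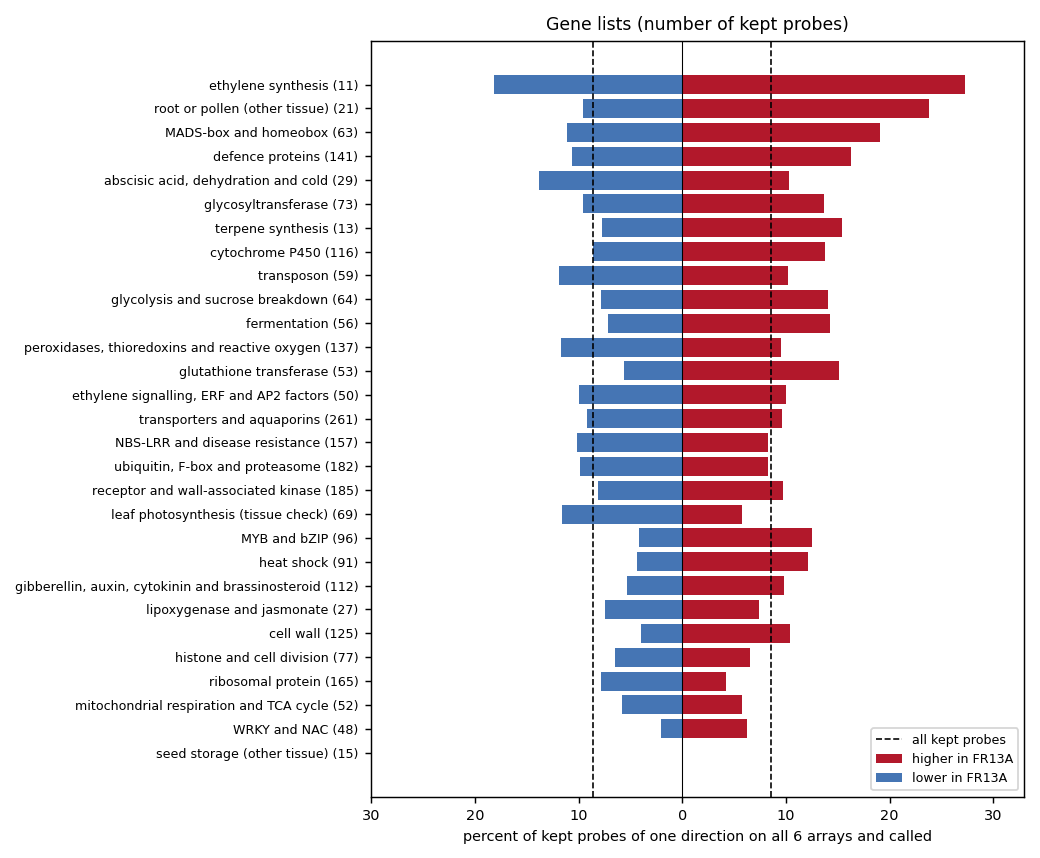
Percent of the kept probes of each gene list that were held higher (red, to the right) or held lower (blue, to the left) in FR13A, with the number of kept probes in brackets. Dashed lines give the shares over all kept probes, 8.56% higher and 8.64% lower. Ethylene synthesis, with 11 probes, has the longest bars and seed storage, with 15, has none.

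Stress and protein-handling lists followed. Heat shock had 11 probes held higher and 4 lower of 91 (16.5%), with a median of 0.06. Besides HSP101, AK063618, described as rice heat shock protein 26, a small chaperone, had ratios of 0.44 and 0.27 in constitutive leaf, 1.10 and 1.04 at 15 min and 1.54 and 1.53 at 24 h and a mean of 0.99 ± 0.05 (SE, limma adjusted p = 0.000201). AK065431, like a spinach heat shock cognate of 70 kDa, was lower on all arrays, from -1.70 to -1.02, with a mean of -1.33 ± 0.08 (SE, limma adjusted p = 0.000419). For ubiquitin, F-box and proteasome 15 were held higher and 18 lower of 182 (18.1%). AK108167, like the ubiquitin-conjugating enzyme UBC11, averaged 1.40 ± 0.07 (SE, limma adjusted p = 0.000214), and AK107102, like Arabidopsis ORE9, an F-box protein that promotes leaf senescence there, averaged 0.85 ± 0.05 (SE, limma adjusted p = 0.000467) over arrays from 0.73 to 1.11.

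Abscisic acid, dehydration and cold had 3 held higher and 4 lower of 29 (24.1%), with a median of 0.02. RD22-like AK105947 led it, and its level fell at 24 h in both genotypes: it fell by 5.15 in FR13A (SE 0.49, limma adjusted p = 0.000272) and fell by 2.82 in IR24 (SE 0.49, limma adjusted p = 0.00647). AK062781, like the wheat cold protein WCOR518, averaged -0.74 ± 0.10 (SE, limma adjusted p = 0.00618), with ratios from -1.28 to -0.04. AK107669, like a cold-induced glucosyltransferase of potato relatives, averaged -1.37 ± 0.10 (SE, limma adjusted p = 0.000611) over arrays from -2.10 to -1.10.

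Redox and detoxification enzymes held differences in both directions. Peroxidases, thioredoxins and reactive oxygen had 13 held higher and 16 lower of 137 (21.2%). The rice peroxidase probe AK108713 ranged from -2.13 to -1.28 with a mean of -1.70 ± 0.11 (SE, limma adjusted p = 0.000478), and AK061013, like Arabidopsis peroxidase prxr5, from 1.09 to 2.20 with a mean of 1.68 ± 0.15 (SE, limma adjusted p = 0.00142). Cytochrome P450, the monooxygenases of specialised and hormone metabolism, had 16 held higher and 10 lower of 116 (22.4%, against 17.2% of all kept probes). AK067543, like soybean CYP71D10, ranged from -2.78 to -1.79 with a mean of -2.24 ± 0.10 (SE, limma adjusted p = 0.00015). AK067905, described as rice PM-II, had ratios of -0.67 and -0.49 in constitutive leaf, -1.10 and -0.67 at 15 min and -2.12 and -2.16 at 24 h, furthest from 0 at 24 h, with a mean of -1.20 ± 0.07 (SE, limma adjusted p = 0.00038).

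Glutathione transferase, the enzymes that couple toxins to glutathione, had 8 held higher and 3 lower of 53 (20.8%). OsGSTU11 (AK061436) averaged -1.70 ± 0.07 (SE, limma adjusted p = 0.000125) over -1.99 to -1.32, OsGSTF3 (AK071745) averaged -1.21 ± 0.12, and OsGSTU17 (AK099489) averaged 1.31 ± 0.09 (SE, limma adjusted p = 0.00055) over 0.75 to 2.03. Glycosyltransferase had 10 held higher and 7 lower of 73 (23.3%). AK071953, like an adzuki bean glucosyltransferase, averaged -2.01 ± 0.10 (SE, limma adjusted p = 0.000169) over -2.25 to -1.59, and AK060513, like tobacco NTGT2, averaged 1.10 ± 0.14 (SE, limma adjusted p = 0.00507) over 0.74 to 1.75.

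Defence proteins had 23 held higher and 15 lower of 141 (27.0%, against 17.2% of all kept probes), with a median of 0.02. AK102820, like a tobacco class V chitinase, an enzyme against fungal cell walls, had ratios of 1.53 and 2.20 in constitutive leaf, 2.12 and 2.18 at 15 min and 1.30 and 2.35 at 24 h and a mean of 1.94 ± 0.16 (SE, limma adjusted p = 0.000987). AK066677, like a maize mixed-linkage glucanase, an enzyme of the grass cell wall more than of defence, averaged -1.95 ± 0.12 (SE, limma adjusted p = 0.000419) over -2.54 to -1.67. AK064050, described as a rice Bowman-Birk trypsin inhibitor, had ratios of 2.96 and 2.04 in constitutive leaf, 0.51 and 3.62 at 15 min and 1.39 and 0.61 at 24 h. These spread widely, and its mean of 1.86 ± 0.41 (SE, limma adjusted p = 0.0295) lost the call without either constitutive or either 24 h array.

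NBS-LRR and disease resistance had 13 held higher and 16 lower of 157 (18.5%), with a median of -0.02. AK065947, described as rice YR14, averaged -2.01 ± 0.07 (SE, limma adjusted p = 6.1e-05) over -2.56 to -1.61, and AK063494, described as rice YR48, averaged -1.57 ± 0.08 (SE, limma adjusted p = 0.000172) over -1.78 to -1.32. Receptor and wall-associated kinase had 18 held higher and 15 lower of 185 (17.8%). AK110685, a rice leucine-rich repeat receptor-like kinase, was lower with ratios of only -1.30 to -1.04 and a mean of -1.13 ± 0.05 (SE, limma adjusted p = 0.000133).

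Some probes that share 1 description were held in opposite directions. Of 29 descriptions carried by at least 10 kept probes each, 16 had members held in both directions and 4 had no held member. These are counts of descriptions, whereas the 8.56% held higher and 8.64% held lower are shares of all kept probes. A description with many probes can have both directions at those shares alone, and an excess was not tested. The 12 MLA6-like probes had 3 held higher and 4 lower, with mean differences from -1.08 to 2.23. The 10 PibH8 probes had 2 held higher and 2 lower, from -2.73 to 0.60, and the 29 YR48 probes 1 higher and 3 lower, from -1.57 to 0.38. Members of such families can share sequence, so their probes may not each measure 1 gene.

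Lipoxygenase and jasmonate had 2 held higher and 2 lower of 27 (14.8%). AK100034, described as rice 12-oxophytodienoic acid reductase, an enzyme of jasmonate synthesis, averaged -1.65 ± 0.08 (SE, limma adjusted p = 0.000214) over -2.12 to -1.17, and AK071443, described as rice allene oxide cyclase, an earlier step, averaged 0.51 ± 0.07 (SE, limma adjusted p = 0.00706) over 0.12 to 0.73. Terpene synthesis had 2 held higher and 1 lower of 13 (23.1%), all under 0.4 in size. The list's patterns did not cover AK108761, like cotton delta-cadinene synthase, a sesquiterpene cyclase, which had ratios of 3.81 and 3.70 in constitutive leaf, 2.33 and 4.63 at 15 min and 1.93 and 1.12 at 24 h and a mean of 2.92 ± 0.30 (SE, limma adjusted p = 0.00226). Gibberellin, auxin, cytokinin and brassinosteroid had 11 held higher and 6 lower of 112 (15.2%). AK060655, like a cabbage cytokinin-binding protein, averaged -1.43 ± 0.12 (SE, limma adjusted p = 0.000954), and AK105093, like an auxin-induced protein, averaged 1.37 ± 0.09 (SE, limma adjusted p = 0.000506) over 0.66 to 2.08. AK105974, described as a rice IAA-amino acid hydrolase, which frees auxin from its stored form, averaged 0.73 ± 0.06.

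Among regulators, MADS-box and homeobox had 12 held higher and 7 lower of 63 (30.2%, against 17.2% of all kept probes). The list's median was 0.02. Besides FDRMADS6, AK066160, a rice MADS box-like probe, had ratios of -2.35 and -2.17 in constitutive leaf, -2.46 and -1.97 at 15 min and -2.27 and -2.47 at 24 h and a mean of -2.28 ± 0.08 (SE, limma adjusted p = 7.2e-05). AK069122, a further MADS box-like probe, was higher, with ratios of 1.45 and 0.86 in constitutive leaf, 1.35 and 2.01 at 15 min and 1.43 and 1.45 at 24 h and a mean of 1.42 ± 0.12 (SE, limma adjusted p = 0.000987). WRKY and NAC had 3 held higher and 1 lower of 48 (8.33%), and the largest, AK100954, like oat WRKY3, averaged 0.39 ± 0.08 (SE, limma adjusted p = 0.024), a call lost without constitutive replicate 1, 15 min replicate 2 or 24 h replicate 1. MYB and bZIP had 12 held higher and 4 lower of 96 (16.7%), with a median of 0.09. AK065873, like barley ABI5, a bZIP factor of abscisic acid signalling, averaged -0.95 ± 0.18 (SE, limma adjusted p = 0.0196), a call lost without either constitutive array or 24 h replicate 2. AK111626, like Arabidopsis MYB59, averaged 0.86 ± 0.13 (SE, limma adjusted p = 0.00768). AK067919, described as a rice leucine zipper protein, averaged 0.78 ± 0.08.

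Transporters and aquaporins had 25 held higher and 24 lower of 261 (18.8%). AK073216, described as a rice sugar transporter, had ratios of 1.86 and 2.26 in constitutive leaf, 1.43 and 1.66 at 15 min and 0.36 and 1.09 at 24 h, smallest at 24 h, and a mean of 1.44 ± 0.11 (SE, limma adjusted p = 0.000866). AK068089, like an Arabidopsis nitrate transporter, ranged from 0.91 to 1.25 with a mean of 1.06 ± 0.06 (SE, limma adjusted p = 0.000281), and AK110805, like the peroxisomal ABC transporter PED3, from -1.34 to -0.81 with a mean of -1.12 ± 0.07 (SE, limma adjusted p = 0.000433). Cell wall had 13 held higher and 5 lower of 125 (14.4%). AK071664, like a pea xyloglucan fucosyltransferase, averaged 1.38 ± 0.08 (SE, limma adjusted p = 0.000298) over 0.52 to 2.03, and AK060558, like a fungal cellulase, averaged -1.24 ± 0.05 (SE, limma adjusted p = 9.3e-05) over -1.80 to -0.83. For AK060558 no FR13A channel was well above background at 15 min, where FR13A was at least 1.79-fold lower.

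Ribosomal protein had 7 held higher and 13 lower of 165 (12.1%), with a median of -0.04. AK066379, like a fern ribosomal protein, averaged -2.02 ± 0.06 (SE, limma adjusted p = 5.1e-05) over -2.34 to -1.66. Histone and cell division had 5 held higher and 5 lower of 77 (13.0%). AK063535, described as rice histone deacetylase HD2, an enzyme that represses transcription, averaged -1.80 ± 0.13 (SE, limma adjusted p = 0.000611) over -2.27 to -1.38. AK070370, like a maize D-type cyclin, averaged -1.08 ± 0.09 (SE, limma adjusted p = 0.000984), and AK102248, like maize CDC5, averaged -0.81 ± 0.11. Transposon had 6 held higher and 7 lower of 59 (22.0%), where AK066385, like a carrot transposable element, averaged 1.76 ± 0.09 (SE, limma adjusted p = 0.000227) over 1.40 to 2.50.

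The tissue lists were compared between genotypes as well. Leaf photosynthesis had 4 held higher and 8 lower of 69 (17.4%), with a median of -0.01. Its summed normalised intensity ranged from 974680 to 1588035 over the FR13A channels and from 848751 to 2022045 over the IR24 channels. The IR24 sum was the larger on every replicate 1 array and the FR13A sum on every replicate 2 array. The sums thus followed the dye, and these ranges do not compare the genotypes. AK058623, AK062203 and AK058516, all described by the chloroplast gene for the Rubisco large subunit (rbcL), averaged -1.25 ± 0.22, -1.20 ± 0.25 and -0.95 ± 0.25 on the log2 scale. The 3 calls were lost without constitutive replicate 2, that of AK062203 also without 15 min replicate 1 and that of AK058516 also without 4 other arrays. Saturated spots limit the size given for AK058623. The normalised log2 levels of AK062203 in IR24 (14.49 to 16.29) lay as high as those of AK058623 (14.50 to 16.33), so its size is to be read with the same care. AK068266, for the Rubisco small subunit, had no value on 15 min replicate 1, and its other 5 ratios ran from 3.22 to 4.36, with a mean of 3.94 ± 0.13 (SE, limma adjusted p = 0.000175).

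Root or pollen had 5 held higher and 2 lower of 21 (33.3%, against 17.2% of all kept probes), with a median of 0.11. Its summed intensity ranged from 8384 to 17260 over the FR13A channels and from 8457 to 16370 over the IR24 channels. The root-specific RCc3 probe AK063684 averaged -1.36 ± 0.14 (SE, limma adjusted p = 0.0022) over -1.91 to -0.95, whereas 3 other RCc3 probes averaged between -0.12 and 0.11. Of 4 RCc2 probes, AK062911 averaged 0.87 ± 0.08 (SE, limma adjusted p = 0.00141) over 0.49 to 1.28 and AK063090 averaged 0.45 ± 0.08 (SE, limma adjusted p = 0.0183), both held higher, whereas AK062848 averaged -0.12 ± 0.06 (SE, limma adjusted p = 0.26) and AK108560 averaged 0.06 ± 0.05 (SE, limma adjusted p = 0.513). Seed storage had no held probe of 15. The part of other tissues in the held differences was not tested.

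Held differences were not confined to probes whose level stayed the same over the times. Submergence, the later day of sampling at 24 h and differences between arrays cannot be told apart in these changes. In the separate-channel limma fit of changes within each genotype, all 3493 held probes were among the 18907 tested. At 24 h 250 held probes rose and 331 fell in FR13A (16.6%, against 10.3% of all probes tested), and 275 rose and 274 fell in IR24 (15.7%, against 9.42%). In both genotypes 365 held probes changed in the same direction (10.4%, against 6.54%), 158 up and 207 down. At 15 min 59 rose and 19 fell in FR13A (2.23%, against 1.58%), and 77 rose and 11 fell in IR24 (2.52%, against 2.02%). Held probes were brighter: 87.4% were well above background in all 12 channels, against 83.9% of kept probes. The part of brightness in these shares was not tested.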

How the data were processed

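Both genotypes were measured on each of 6 arrays, grouped as the labels state. Per the file headers, the deposited array files hold the mean spot and median local background intensity of the green and red channels, processed intensity, and the log10 of their red-to-green ratio. Agilent Feature Extraction 8.1 was used, per the submitters' processing notes. The authors' deposited series table is in log10 ratios too, which followed the scanner ratio on replicate 1 arrays and its inverse on replicate 2 arrays, so they are FR13A over IR24, with every column median at 0.

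Of 22575 spots, 918 positive and 162 negative controls were left out. Background was corrected by normexp (offset 50) and arrays were normalised with loess (limma 3.58.1, R 4.3.3), with control and marked spots given no weight. Non-uniform and outlier spots were left missing. Kept probes had to exceed background clearly, in either channel, on 2 or more arrays. The fit of log2 FR13A over IR24 estimated a mean for each time and pooled the spread (3 residual and 2.62 prior degrees of freedom), and 27 kept probes without a value at each time had no mean difference. Log2 values are relative to each array's loess curve. Changes within a genotype used limma's separate-channel fit after Aquantile normalisation (intraspot correlation 0.498) and are secondary. All tests were two-sided limma tests, adjusted by Benjamini-Hochberg over all probes tested. The fit was tested on simulated data.

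Named probes were the 15 described held probes with the largest difference in each direction, up to 3 per gene list, the 6 with the narrowest and the 6 with the widest range over times, up to 6 per genotype detected in 1 genotype only, and probes named as rice ADH1, ADH2, PDC1, PDC2, ACO1, hemoglobin 1, AOX1A or AOX1B. The undescribed probes, the Rubisco small subunit, further ethylene synthesis, ACC oxidase and root-specific probes, and the members that changed with time were added with their values known. The members and the 29 gene lists, which are patterns on descriptions, were chosen with earlier results of these data known, and patterns that matched inside other words were corrected after their matches were seen. Lists are described by counts and were not tested, and the values of some members are not reported here. The reference table of RefSeq genes matched no array accession, so no coordinates are given. The alternatives changed background, normalisation, filter, variance model, blocks and arrays.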

Additional observations from a re-analysis of the deposited data

Results flagged for a closer look

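For 15 tests on 9 held probes, the genotype ratio differed between times by a test of the change itself. In each the ratio of FR13A over IR24 was lower at 24 h, which does not say that the level in FR13A fell. AK065693 (PibH8) stood at -1.54 in constitutive leaf, -1.57 at 15 min and -5.08 at 24 h, and its change was -3.55 for 24 h minus constitutive leaf (limma adjusted p = 0.0374) and -3.52 for 24 h minus 15 min (limma adjusted p = 0.0454). AK111809 (WAK2-like) stood at -0.91 in constitutive leaf, -1.20 at 15 min and -3.33 at 24 h, a change of -2.42 for 24 h minus constitutive leaf (limma adjusted p = 0.0468). AK068929 (F-box-like) stood at -1.91 in constitutive leaf, -0.82 at 15 min and -2.61 at 24 h, a change of -1.79 for 24 h minus 15 min (limma adjusted p = 0.0454). AK067087, described by the blast resistance patent, changed by -2.35 for 24 h minus constitutive leaf (limma adjusted p = 0.0269) and -2.16 for 24 h minus 15 min (limma adjusted p = 0.0384). The 5 with no informative description changed as follows. The change of AK068675 was -1.45 for 24 h minus constitutive leaf (limma adjusted p = 0.0374) and -2.07 for 24 h minus 15 min (limma adjusted p = 0.0201). That of AK060656 was -2.11 for 24 h minus constitutive leaf (limma adjusted p = 0.0269) and -2.07 for 24 h minus 15 min (limma adjusted p = 0.038). That of AK110646 was -1.72 for 24 h minus constitutive leaf (limma adjusted p = 0.0269) and -1.34 for 24 h minus 15 min (limma adjusted p = 0.0454). AK071492 changed by -1.55 for 24 h minus constitutive leaf (limma adjusted p = 0.0378), and AK067278 by -1.39 for 24 h minus constitutive leaf (limma adjusted p = 0.0378) and -1.36 for 24 h minus 15 min (limma adjusted p = 0.0493). Each change rests on 2 arrays per time. No FR13A channel of AK068675 was well above background, so its changes compare bounds, and 2 of 6 FR13A channels were for AK060656 and AK065693.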

How the results depend on the processing

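The 3493 held probes kept the direction of their mean difference under every alternative in which they were measured. Under the filter to probes well above background in every channel 3053 of them were measured. Refits of the same ratios, with other filters, blocks, variance models or an array left out, could hardly change this direction, since it chose the set. Only other background or normalisation, the processed signals and the deposited table could readily have changed it. The same direction on all 6 arrays is a stricter measure. Of the 5240 probes that had it in the main fit, 2322 kept it with median centring and 4956 with the processed signals. With median centring in place of loess, 1037 mean differences passed, 2650 probes had the same direction, 938 were held and 0 changed with time. The median SE of held probes under it was 0.155, against 0.0677. The number of probes of the same direction was 1783 at a minimum of 0.2 on every array, 252 at a minimum of 1, and, as fewer arrays were asked for, 14650 on the 2 arrays of scan day 2 and 9467 on the 3 of scan day 3. No test was run within a scan day. Leaving out each array gave 2627 to 3418 mean differences, 2423 to 2980 held probes, 5706 to 6639 probes of the same direction and 0 to 7 changes with time. The lowest numbers of mean differences were 2660 without constitutive replicate 1 and 2627 without 24 h replicate 2. The 11 changes with time became 22 with the scanner software's processed signals, 22 with the deposited table, 7 without background subtraction, 20 with scan day as a random block and 0 with trend and robust variance. Except for the shorter count of arrays, the cause was not tested. Replicate numbers mark the dye orientation. Same-numbered arrays deviated together at r = 0.0939 (constitutive and 15 min), 0.0629 (constitutive and 24 h) and 0.401 (15 min and 24 h). The same-numbered 15 min and 24 h arrays were also scanned on the same day, so number and scan day cannot be told apart there. The main fit did not take the numbers to pair the samples. With scan day as a random block, 3350 mean differences passed and 2958 probes were held, against 4096 and 3493. With the replicate number as a block, 4588 mean differences passed, 3638 probes were held and 0 changed with time. Of 121 named probes with a call, 96 kept it under every refitted alternative and 105 with each array left out. Median centring also ended the calls of AK063306, AK065873, AK067919, AK071443, AK073770, AK100954, AK105974, AK107376 and AK111626, and 1 mean over 6 arrays that of AK065739. The ADH1 probe AK073964, not called at -0.02, was -0.13 without constitutive replicate 2 and turned to 0.0091 with scan day as a block, 0.099 without constitutive replicate 1, 0.045 without 15 min replicate 2 and 0.0026 without 24 h replicate 2. AOX1a (AK064040) was -0.012 on scan day 2. Dim probes carry bounds, and 2 arrays per time limit the time tests.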

Other observations

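Probes that passed the test of the mean difference but lacked 1 array included AK067639, like an Arabidopsis ABC transporter, and AK061132, like chalcone synthase, the entry enzyme of flavonoid synthesis. AK067639 averaged 2.04 ± 0.09 (SE, limma adjusted p = 0.000409) over the 5 arrays with a value, from 1.52 to 2.26. AK061132 averaged 1.51 ± 0.12 (SE, limma adjusted p = 0.0023), with ratios from 0.63 to 2.32 that were lowest at 24 h. On the lower side AK109439, like an aquaporin, a membrane water channel, averaged -1.91 ± 0.13 (SE, limma adjusted p = 0.00124) over -2.89 to -1.08, and a rice chitinase probe, AK065866, averaged -1.54 ± 0.16 (SE, limma adjusted p = 0.00492) over -2.00 to -1.03. All 4 had the same direction on their 5 arrays and were left out of the held set by the rule that asks for 6 values.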
